A study of Mus musculus with 8 samples.

Results

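The core clock and clock output genes examined here are 10 genes taken by symbol from the deposited count table: Arntl, Clock, Npas2, Per1, Per2, Per3, Nr1d1, Nr1d2, Dbp and Hlf. All 10 of 10 were found among the 45706 genes of the table, and all 10 were among the 14645 genes that passed the filter on low counts. RNA-seq was done on liver from 8 C57BL/6 mice, 4 labelled HuR WT and 4 labelled HuR KO, with 1 library per mouse and no treatment named for either group. HuR is an RNA-binding protein that stabilises many mRNAs, and it is encoded by Elavl1. The promoter or cell type that drove the deletion, the exons removed, the age of the mice and the hour of collection are not given in the sources used here. In bulk tissue, fewer cells of a type and less RNA per cell cannot be told apart.

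The mammalian clock is a transcriptional feedback loop that runs in nearly every cell and is strong in liver. BMAL1 (encoded by Arntl), paired with CLOCK or with its paralogue NPAS2, binds E-boxes and activates the Per and Cry genes, Nr1d1, Nr1d2 and Dbp. PER and CRY proteins then repress BMAL1 and CLOCK, and the nuclear receptors REV-ERBα and REV-ERBβ (Nr1d1 and Nr1d2) repress Arntl, Npas2 and Clock through ROR response elements. In mouse liver the Arntl, Npas2 and Clock mRNAs peak near the end of the night, whereas Nr1d1, Dbp, Per3 and Nr1d2 peak during the day and Per1 and Per2 near dusk. DBP and HLF are transcription factors of the PAR bZIP family that carry the rhythm to output genes through D-boxes. The level of such a gene in 1 liver therefore depends on the hour at which the liver was taken.

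The start-site regions of 3 members and a stretch of Arntl are shown because they hold matches to elements of the kinds through which genes of the loop act on each other. The sequences are from RefSeq on GRCm38.p6, the build of the deposited counts, read 5′ to 3′ on the strand of the gene. Those of Per1, Per3 and Nr1d1 are the 250 bases before an annotated start, with an E-box, D-boxes and the related E′-box in capitals. The start used for Per1 is a later one, as the gene as counted begins at 69095217 and contains the printed window. That of Arntl is a window of 30 bases just after an annotated start, with a ROR response element in capitals.
Per1, chr11:69098699-69098948, plus strand: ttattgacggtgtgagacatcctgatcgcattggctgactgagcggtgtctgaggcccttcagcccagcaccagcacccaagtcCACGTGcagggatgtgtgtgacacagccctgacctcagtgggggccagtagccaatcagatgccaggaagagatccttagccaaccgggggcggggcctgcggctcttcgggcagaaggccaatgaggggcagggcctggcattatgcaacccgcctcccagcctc
Per3, chr4:151044666-151044915, minus strand: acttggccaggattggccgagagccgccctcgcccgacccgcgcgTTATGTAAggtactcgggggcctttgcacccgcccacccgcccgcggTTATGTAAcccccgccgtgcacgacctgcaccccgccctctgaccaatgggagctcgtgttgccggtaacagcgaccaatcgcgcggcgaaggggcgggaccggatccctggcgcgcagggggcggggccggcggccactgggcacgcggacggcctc
Nr1d1, chr11:98775378-98775627, minus strand: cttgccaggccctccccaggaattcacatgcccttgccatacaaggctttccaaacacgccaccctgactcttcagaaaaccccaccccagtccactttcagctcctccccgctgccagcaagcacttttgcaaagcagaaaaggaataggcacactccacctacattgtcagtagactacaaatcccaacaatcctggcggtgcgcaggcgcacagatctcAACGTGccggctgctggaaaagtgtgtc
Arntl, chr7:113207528-113207557, plus strand: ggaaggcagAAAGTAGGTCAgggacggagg

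Both strands of windows from 250 bases before to 50 bases after each start were searched, 13 windows for 9 of the 10 members, Per2 having no entry. The E-box CACGTG was found in 1 member, Per1, at positions −166 to −161 counted from the start, and in 7.15% of all 32851 windows. The D-box, searched as TTACATAA, TTACGTAA, TTATATAA and TTATGTAA, was found in 1 member, Per3, which held 2 copies at −205 to −198 and −158 to −151, and in 1.59% of all windows. Nr1d1 held the E′-box CACGTT on the opposite strand at −28 to −23 (4.68% of all windows), and Hlf held a cyclic AMP response element, TGACGTCA, at −9 to −2 (1.79% of all windows). The ROR response element of Arntl lay at 27 to 37 after the start, and 0.384% of all windows held one. The E-box and E′-box differ in their last letter, so no site was counted under both. These matches describe letters in a window of 300 bases only.

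Libraries held 18649618 to 31249286 counts over all genes, and the members were counted from 32 times (Dbp in KO replicate 1) to 4186 times (Nr1d1 in KO replicate 4) per library. Levels are given as CPM, counts scaled to the library total after normalisation by the trimmed mean of M values, and values in a sentence follow replicates 1 to 4. The 6 hepatocyte markers examined (Alb, Apoa1, Ttr, Cps1, Apob and Tat) summed to between 112200 and 140200 CPM in every library. The mean of Elavl1 was 41.97 CPM under the WT label and 50.02 CPM under the KO label (edgeR quasi-likelihood test, Benjamini-Hochberg adjusted p = 0.258). KO thus did not lie below WT for this gene, so directions are given between labels, and WT and KO below stand for the label of a mouse. The titles hold animal numbers that form a pair of series, 98 to 100 (WT replicate 3, KO replicates 3 and 4) and 4-digit numbers (WT replicates 1, 2 and 4, KO replicates 1 and 2), and the labels do not say what separates them. Of markers of other liver cells, all 6 tested bile duct genes and 1 of 5 stellate cell genes (Col1a1) were called higher in KO, and 0 of 5 endothelial, 0 of 5 macrophage, 0 of 3 lymphocyte, 0 of 3 red cell and 0 of 6 hepatocyte genes were called (edgeR). Their part in the results below was not tested.

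None of the 10 clock genes was called different between the KO and WT labels, and the level of each overlapped between them. The edgeR quasi-likelihood test called 0 of 10 at an adjusted p under 0.05, where 3.69% of all tested genes were called (2.32% higher and 1.37% lower in KO). DESeq2 and limma-voom also called 0 of 10, where they called 7.57% and 3.19% of all tested genes. At an unadjusted p under 0.05 there was 1 of 10, Hlf, against 18% of all tested genes. No overlap was seen for 0 of 10 members, whereas 11.2% of all tested genes showed no overlap. The median log2 fold change of the members was −0.19, beside −0.005 over all tested genes. The intervals were wide for most members, so a p above the threshold does not show equal levels.

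Per kilobase of exon, the members ranked in the order Nr1d1, Hlf, Nr1d2, Arntl, Clock, Per1, Dbp, Per2, Npas2 and Per3 by their mean over the 8 libraries. Nr1d1 stood at 25.0 ± 13.7 CPM per kilobase in WT and 29.8 ± 20.3 in KO (SD, n = 4 mice per label). Per3 stood lowest by that mean, at 2.22 ± 1.33 and 1.08 ± 0.894 CPM per kilobase, though in WT Npas2 lay lower. Dbp had an SD about as large as its mean, at 7.03 ± 7.01 and 5.25 ± 6.46 CPM per kilobase, so that neither Clock (7.12 ± 0.771 and 6.70 ± 0.976) nor Per1 (7.65 ± 2.34 and 5.88 ± 2.36) was separated from it by more than the spread. Hlf was at 14.7 ± 1.92 and 12.5 ± 0.400 CPM per kilobase. Per2 (3.99 ± 2.26 and 3.97 ± 1.24) and Npas2 (1.77 ± 0.951 and 1.99 ± 1.30) were the neighbours in this order whose means differed by more than the larger of their SDs, and that held in KO alone.

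**Figure D1:**
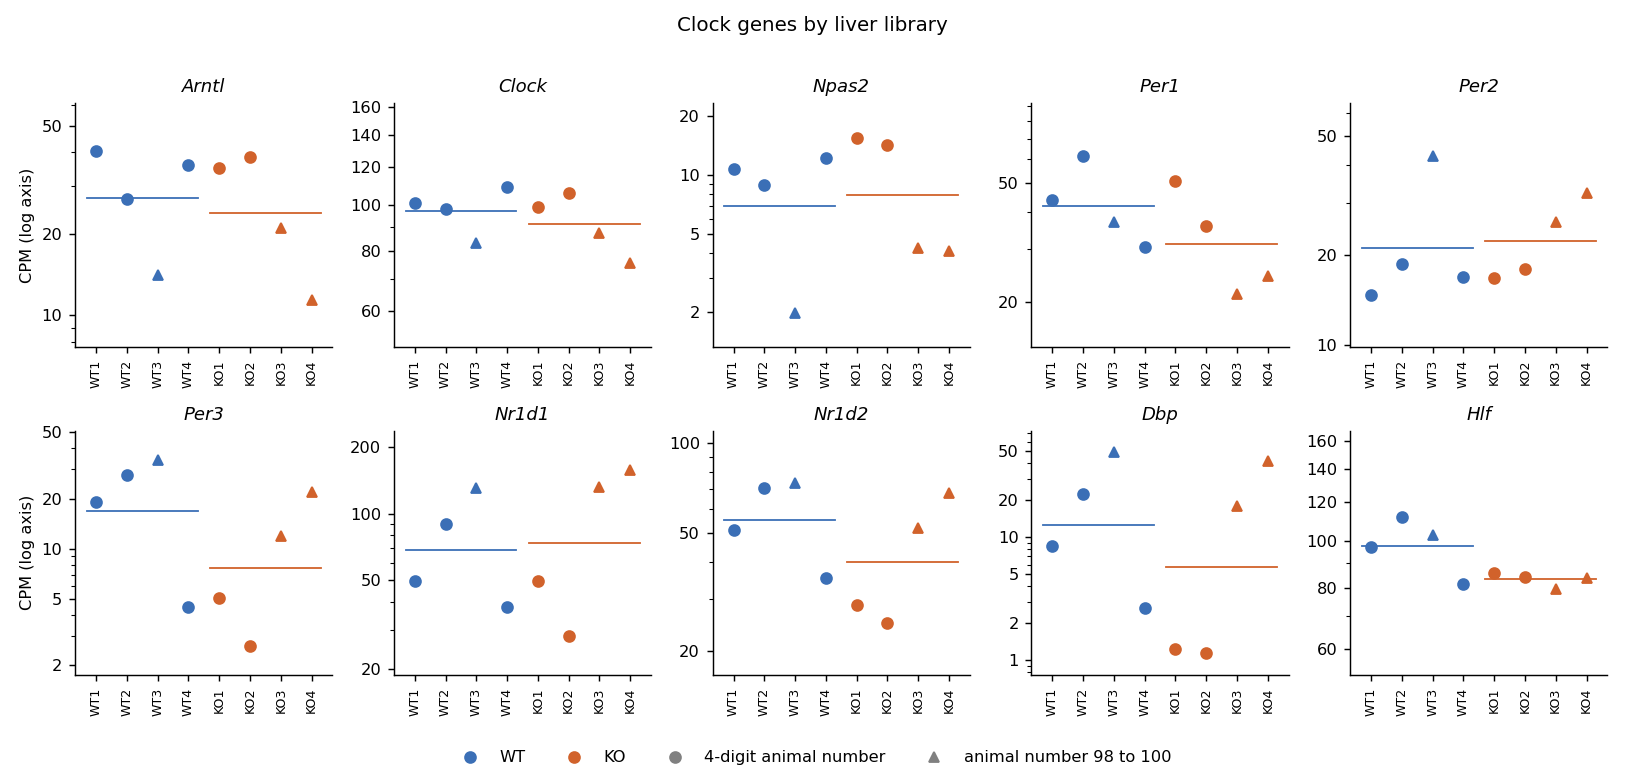
Level of each of the 10 clock genes in CPM (log axis) in each of the 8 liver libraries. Blue marks are WT and orange KO, circles are 4-digit animal numbers, triangles are animals 98 to 100, and lines are geometric means of 4 libraries. Arntl, Clock and Npas2 are lowest, and Per2 and Nr1d1 highest, in the 3 triangles, and every panel shows overlap between blue and orange.

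Among the activators of the loop, Arntl (ENSMUSG00000055116, mm10 chromosome 7, 113207465 to 113314122, plus strand, 20 exon blocks) was at 40.5, 26.8, 14.1 and 35.8 CPM in the WT mice. The levels were 35.1, 38.5, 21.0 and 11.4 CPM in the KO mice. The lowest 3 values belonged to animals 98 to 100, and the genotypes overlapped. The log2 fold change was −0.14 (SE 0.48, edgeR adjusted p = 0.92), and its unadjusted 95% interval ran from 0.411-fold to 2.002-fold. Fitted within each animal number series the sign was positive, at 0.10 among the 4-digit animals and 0.19 among animals 98 to 100, uncalled in both. Animals 98 to 100 set 2 KO libraries against a single WT library.

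Npas2 (ENSMUSG00000026077, chromosome 1, 39193731 to 39363236, plus strand), which encodes the paralogue that can replace CLOCK, was at 10.8, 8.88, 1.98 and 12.3 CPM in the WT mice and 15.6, 14.2, 4.27 and 4.10 CPM in the KO mice. The same 3 libraries were lowest, and their values lay below all of the other 5. Over all libraries the log2 fold change between labels was 0.19 (SE 0.69, edgeR adjusted p = 0.928). With the animal number series as a term in the model it was 0.66 (SE 0.17, edgeR adjusted p = 0.0316), the single call among the 10 members in that fit, in which 4.94% of all tested genes were called. Fitted within the series the log2 fold changes were 0.49 (4-digit) and 1.07 (98 to 100), uncalled in both.

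Clock (ENSMUSG00000029238, chromosome 5, 76209868 to 76304792, minus strand) encodes the partner of BMAL1 and varied little. It was at 100.7, 97.98, 83.3 and 108.7 CPM in the WT mice and at 99.1, 106.0, 87.2 and 75.6 CPM in the KO mice. The order of the libraries resembled that of Arntl at a smaller range, 1.44-fold from lowest to highest against 3.55-fold. Its log2 fold change was −0.09 (SE 0.12, edgeR adjusted p = 0.751), and the 95% interval from 0.794-fold to 1.12-fold was the narrowest but for that of Hlf.

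Of the repressor genes of the Per family, Per2 (ENSMUSG00000055866, chromosome 1, 91415982 to 91459324, minus strand) was at 14.8, 18.7, 43.1 and 16.97 CPM in the WT mice and at 16.8, 18.0, 25.8 and 32.4 CPM in the KO mice. Its 3 highest values came from the libraries in which Arntl was lowest. The log2 fold change was −0.02 (SE 0.41, edgeR adjusted p = 0.99), and it turned to 0.47 without WT replicate 3, uncalled in either case. Per1 (ENSMUSG00000020893, chromosome 11, 69095217 to 69109960, plus strand), which also responds to glucocorticoids and cyclic AMP, did not share this order. It was at 43.7, 61.2, 37.1 and 30.5 CPM in the WT mice and 50.6, 36.0, 21.3 and 24.5 CPM in the KO mice, with a log2 fold change of −0.38 (SE 0.33, edgeR adjusted p = 0.613).

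Per3 (ENSMUSG00000028957, chromosome 4, 151003652 to 151044665, minus strand) encodes the Per protein that is dispensable for the rhythm itself. It stood at 19.1, 27.6, 34.0 and 4.49 CPM in the WT mice and at 5.07, 2.63, 11.9 and 21.8 CPM in the KO mice. WT replicate 4 lay with KO replicates 1 and 2, and KO replicate 4 lay with the remaining WT libraries, so the groups overlapped across a 12.9-fold range. The log2 fold change was −1.05 (SE 0.82, edgeR adjusted p = 0.578), and it was −1.71 with the series as a term (edgeR adjusted p = 0.285). Fitted within the series it was −2.16 (4-digit, uncalled) and −1.01 (98 to 100). The latter fit set a single WT library against KO replicates 3 and 4, so it holds no spread between WT mice.

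Of the REV-ERB genes, Nr1d1 was highest in the same 3 libraries as Per2. Nr1d1 (ENSMUSG00000020889, chromosome 11, 98767932 to 98775333, minus strand) was at 49.4, 89.7, 130.6 and 37.9 CPM in the WT mice and at 49.7, 28.1, 131.2 and 157.4 CPM in the KO mice. Nr1d2 (ENSMUSG00000021775, chromosome 14, 18204054 to 18239127, minus strand) was at 51.2, 70.9, 73.6 and 35.3 CPM and at 28.7, 24.9, 52.0 and 67.8 CPM in the same order, with WT replicate 2 also among its highest. The groups of both genes overlapped, and the log2 fold changes were 0.25 (SE 0.67, edgeR adjusted p = 0.898) and −0.42 (SE 0.40, edgeR adjusted p = 0.657). With the series as a term they were −0.34 for Nr1d1 and −0.73 for Nr1d2 (edgeR adjusted p = 0.734 and 0.22). Nr1d1 overlaps Thra on the opposite strand over 263 bases, 8.55% of its exon length, and the authors' counting used strand.

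Dbp (ENSMUSG00000059824, chromosome 7, 45705088 to 45710155, plus strand), the main output factor of the loop in liver, had the widest range of the members. It was at 8.46, 22.6, 49.0 and 2.66 CPM in the WT mice and at 1.24, 1.14, 18.1 and 41.4 CPM in the KO mice. The highest library held 42.8 times the level of the lowest, with an 18.4-fold range among the libraries labelled WT and a 36.1-fold range among those labelled KO. The log2 fold change between labels was −0.44 (SE 1.33, edgeR adjusted p = 0.912), with a 95% interval from 0.0792-fold to 6.90-fold, and it turned to 0.44 without WT replicate 3. It was −1.34 by limma-voom, −1.35 with the replicate block and −2.06 with the series as a term, all uncalled. Fitted within the series it was −3.24 (4-digit, uncalled) and −0.72 (98 to 100). The latter fit set a single WT library against KO replicates 3 and 4, so it holds no spread between WT mice. Dbp overlaps Sphk2 on the opposite strand over 491 bases, 16.7% of its exon length.

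Hlf (ENSMUSG00000003949, chromosome 11, 90336536 to 90390895, minus strand), of the same family as Dbp, was nearly flat. It was at 97.1, 112.0, 102.9 and 81.4 CPM in the WT mice and at 85.8, 84.3, 79.6 and 83.7 CPM in the KO mice. WT replicate 4 was the WT library that lay within the KO range. Hlf had the smallest p of the members, with a log2 fold change of −0.24 (SE 0.10, edgeR adjusted p = 0.218) and an unadjusted 95% interval from 0.731-fold to 0.982-fold.

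The spread between mice of one label was large for most members. The SD of log2 CPM within the groups was 2.24 for Dbp, which placed it at the 99.99th percentile of all tested genes. It was 1.32 for Per3, 1.13 for Npas2 and 1.01 for Nr1d1, at the 99.8, 99.2 and 98.5 percentiles. Arntl, Nr1d2, Per2 and Per1 had SDs of 0.74, 0.60, 0.58 and 0.50, at the 94.4, 89.6, 89.0 and 84.3 percentiles. Clock and Hlf, at 0.19 and 0.14, lay at the 39.8 and 23.0 percentiles. For Clock and Hlf the mice of one label differed less than for most genes.

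Between the animal number series, Arntl and Npas2 were lower and Per2 higher in animals 98 to 100. In a model with genotype as a further term, 3 of 10 members were called (edgeR adjusted p under 0.05), where 2.41% of all tested genes were called (1.43% higher and 0.976% lower in animals 98 to 100). Npas2 was at 1.98 to 4.27 CPM in animals 98 to 100 and at 8.88 to 15.6 CPM in the 4-digit animals, a log2 difference of −2.05 (SE 0.18, edgeR adjusted p = 4.7e-05). The log2 difference of Arntl was −1.22 (SE 0.20, edgeR adjusted p = 0.0175) and that of Per2 was 1.02 (SE 0.13, edgeR adjusted p = 0.00104). In 5 of 10 members, these 3 with Clock and Nr1d1, the series did not overlap, against 11.1% of all tested genes.

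The other members did not pass that test. Dbp had the largest fitted difference, 3.37 (SE 0.95, edgeR adjusted p = 0.176), with WT replicate 2 of the 4-digit series above KO replicate 3 of the other. Nr1d1 was at 1.58 (SE 0.39, edgeR adjusted p = 0.137), Per3 at 1.61, Nr1d2 at 0.88, Clock at −0.32, Per1 at −0.63 and Hlf at 0.004. The call for Npas2 held without any 1 library, whereas that of Arntl was lost without WT replicate 3 (adjusted p = 0.243) or KO replicate 2 (adjusted p = 0.0668) and that of Per2 without WT replicate 3 (adjusted p = 0.0783). Without WT replicate 2, Nr1d1 (1.77, adjusted p = 0.0163) and Nr1d2 (1.001, adjusted p = 0.0111) were called as well. Summed bile duct markers moved with the series as well as with the label. In WT they were at 67.0 CPM in animal 100 and at 41.0 to 57.7 CPM in the 4-digit animals, and in KO at 232.0 and 246.7 CPM in animals 99 and 98 against 150.2 and 161.3 CPM in the 4-digit animals. With genotype in the model all 6 had a positive log2 difference for animals 98 to 100, with a median of 0.59, and 1 was called (Spp1, 0.58, edgeR adjusted p = 0.0079). A test of whether the difference between labels varied between the series gave edgeR adjusted p from 0.69 for Per2 to 0.995 for Clock, so 0 of 10 were called, where 0.0205% of all tested genes were. These left-out libraries and that test were chosen after the data had been seen.

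**Figure D2:**
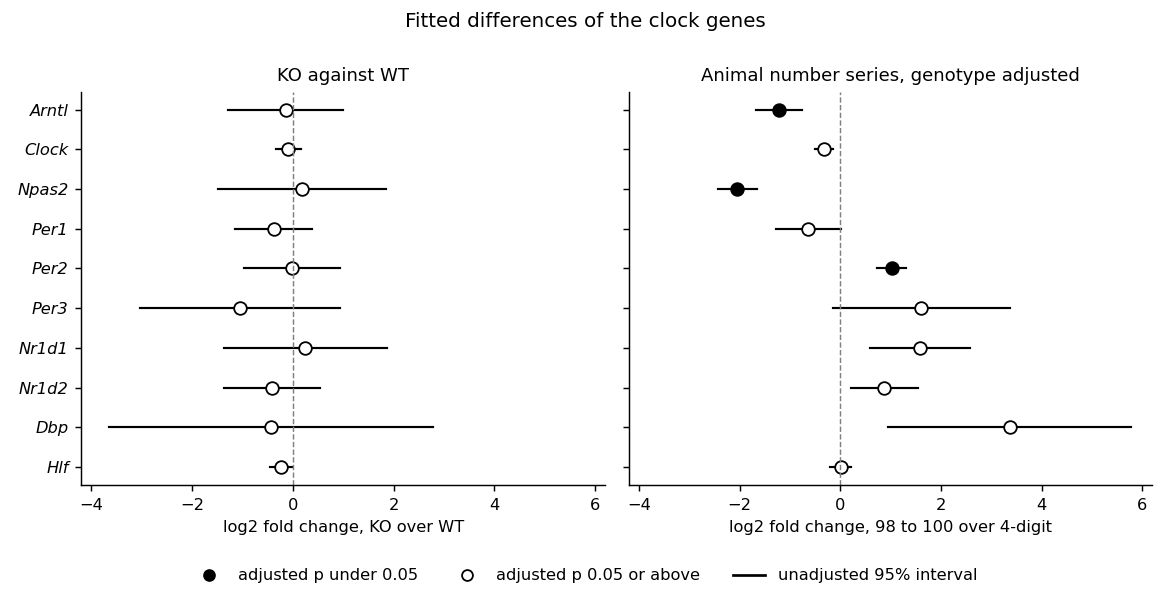
Fitted log2 fold changes of the 10 clock genes with unadjusted 95% intervals, for KO over WT (left) and for animals 98 to 100 over 4-digit animals with genotype in the model (right). Filled points passed an adjusted p under 0.05. No point is filled on the left, and Arntl at −1.22, Npas2 at −2.05 and Per2 at 1.02 are filled on the right.

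Dbp was high where Arntl was low, in mice of both labels. The ratio of Dbp to Arntl, each per kilobase, was 0.206, 0.832, 3.42 and 0.0734 in WT replicates 1 to 4 and 0.0348, 0.0293, 0.851 and 3.57 in KO replicates 1 to 4. Arntl thus exceeded Dbp 34.1 times per kilobase in KO replicate 2, and Dbp exceeded Arntl in WT replicate 3 and KO replicate 4. Each label held libraries near both ends of this scale.

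Correlations of log2 CPM were computed over the 8 libraries for all 45 pairs of members, with exact two-sided permutation p-values and Benjamini-Hochberg adjustment over the 45 pairs. The permutations moved all 8 libraries freely, so these p-values take no account of the animal number series. Levels of Arntl, Clock, Npas2, Per2 and Nr1d1 did not overlap between the series, as given above. By Pearson's r 18 pairs had an adjusted p under 0.05, and by Spearman's rho 10 pairs. Arntl, Clock and Npas2 were positively correlated with each other, r from 0.85 to 0.96, and of these 3 pairs 3 passed by r and 1 by rho. Of the 21 pairs of these 3 activators with the other 7 members, 18 were negative and 9 passed the adjusted threshold, and the 3 positive pairs were those of Per1. All 15 pairs with Per2, Per3, Nr1d1, Nr1d2 and Dbp were negatively correlated, r from −0.95 to −0.64, and held all 9. These 15 pairs were picked after the values had been seen. Members share libraries and regulate each other, so the pairs are not independent of one another.

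The lowest r between activator and target was that of Npas2 and Per2, −0.95 (rho −0.83, exact permutation p = 0.00251 and 0.0154, adjusted p = 0.0145 and 0.0577). Arntl and Nr1d1 had r = −0.90 and rho = −0.90 (exact permutation p = 0.00221 and 0.00456, adjusted p = 0.0145 and 0.0257), and r was −0.91 without the 2 libraries farthest from the median of Arntl. For Arntl and Dbp, r was −0.83 and rho −0.79 (exact permutation p = 0.0143 and 0.0279, adjusted p = 0.0403 and 0.0698), and r was −0.70 without the 2 farthest libraries. For each of the 45 pairs the 2 libraries farthest from the median of its earlier-listed gene were left out. Over the remaining 6 libraries 0 pairs passed the adjusted threshold. With 6 libraries the smallest possible exact p is too large for a pair alone to pass the adjustment over 45 pairs. That count therefore does not show whether the correlations were lost. All 15 pairs of activators with Per2, Per3, Nr1d1, Nr1d2 and Dbp stayed negative there, r from −0.92 to −0.43.

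Among the targets, Nr1d2 and Dbp followed each other most closely, with r = 0.98 and rho = 0.98 (exact permutation p = 0.000198 and 0.000397, adjusted p = 0.00558 and 0.0128). Per3 went with both. Its r was 0.97 with Nr1d2 (rho 0.95, exact permutation p = 0.000248 and 0.00114, adjusted p = 0.00558 and 0.0128) and 0.93 with Dbp (rho 0.93, exact permutation p = 0.00258 and 0.00223, adjusted p = 0.0145 and 0.0201). Per3 is the member whose start-site region, printed above, holds 2 D-boxes, and none was found in those of Nr1d2 and Dbp. Any part of this element in these correlations was not tested. Without the 2 farthest libraries r was 0.95 for Nr1d2 with Dbp, 0.96 for Per3 with Nr1d2 and 0.89 for Per3 with Dbp.

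Within the series the pattern differed between pairs. With the genotype and series terms removed, r was 0.99 for Nr1d2 with Dbp, 0.93 for Per3 with Nr1d2 and 0.91 for Per3 with Dbp. Among the 5 mice with 4-digit numbers alone it was 0.995, 0.97 and 0.95. The 3 pairs among Arntl, Clock and Npas2 stayed positive but were lower. Their r ran from 0.25 to 0.79 with those terms removed and from 0.35 to 0.57 in the 4-digit animals. All 15 pairs of activator and target above stayed negative with those terms removed, from −0.83 to −0.15. Some were nearer 0, such as Npas2 with Nr1d1 (−0.87 to −0.15), and others farther, such as Clock with Per3 (−0.66 to −0.83). In the 4-digit animals 14 of the 15 were negative, from Npas2 with Dbp at −0.98 to Clock with Per2 at 0.03. Genotype was not removed from the values of the 4-digit animals, which hold mice of both labels. Npas2 with Dbp was at −0.23 with genotype and series removed. Animals 98 to 100 were 3 libraries, too few for a value. Per2 stood apart from the other targets on this scale, with r = −0.08 with Dbp once genotype and series were removed, against 0.75 over all libraries.

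**Figure D3:**
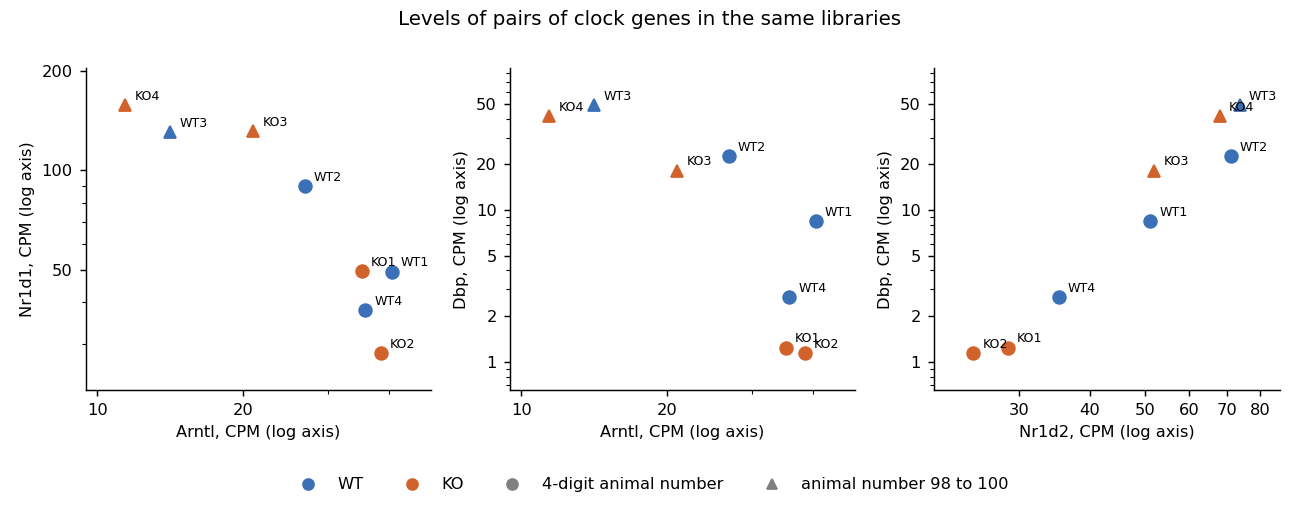
Levels in CPM (both axes log) of Nr1d1 against Arntl, Dbp against Arntl and Dbp against Nr1d2, 1 mark per liver library, colours and shapes by genotype and animal number series. The 2 left panels slope down (r = −0.90 and −0.83) and the right panel slopes up (r = 0.98), with blue and orange marks at both ends of each.

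Over all 8 libraries Per1 and Hlf had no pair past the threshold by Pearson's r. Per1 had r of 0.47, 0.47 and 0.45 with Arntl, Clock and Npas2, and −0.24 with Dbp, none past the threshold. With genotype and series removed, its r with the activators turned negative, from −0.80 to −0.47, and that with Dbp turned to 0.48. Hlf had r of −0.06 with Arntl (rho 0.07, exact permutation p = 0.881 and 0.882, adjusted p = 0.902 and 0.923) and 0.44 with Dbp. The closest partner of Hlf was Per1, with r = 0.73 and rho = 0.88 (exact permutation p = 0.0436 and 0.00724, adjusted p = 0.0854 and 0.0326), and r was 0.39 without the 2 farthest libraries. With genotype and series removed, r of Hlf was 0.92 with Per1, 0.79 with Per3, 0.69 with Dbp, −0.47 with Arntl, −0.60 with Clock and −0.84 with Npas2. In the 4-digit animals, with genotype left in, r of Hlf was 0.93 with Per3, 0.91 with Nr1d2 and 0.92 with Dbp.

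**Figure D4:**
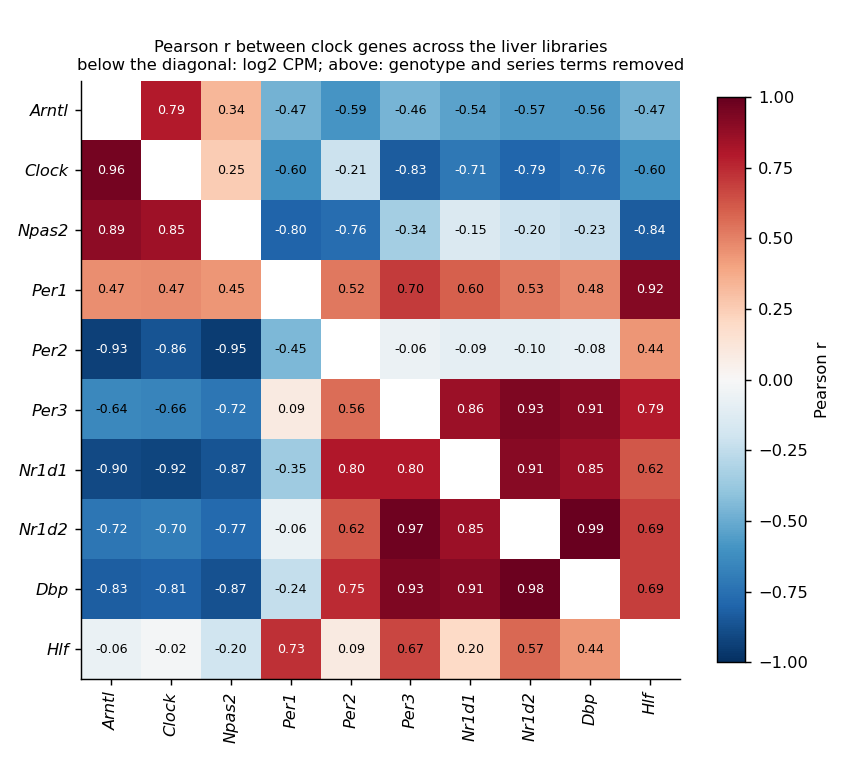
Pearson r between each pair of the 10 clock genes over the 8 liver libraries, from −1 (blue) to 1 (red). Below the diagonal are values from log2 CPM and above it values with genotype and series terms removed. Below the diagonal, Arntl, Clock and Npas2 form a red block and are blue against Per2, Per3, Nr1d1, Nr1d2 and Dbp. Above it the 3 pairs of that block run from 0.25 to 0.79. The block of Per3, Nr1d1, Nr1d2 and Dbp is red on both sides.

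Of 17 further clock genes, 16 passed the filter on low counts, Rorb being counted 8 times in all libraries together. None of the 16 was called between labels by the edgeR test, and 6 had an unadjusted p under 0.05 (18% of all tested genes did). DESeq2 called 3, Csnk1e and Usp2 among them, and limma-voom called 1 (7.57% and 3.19% of all tested genes). The median log2 fold change was −0.23. Usp2, which encodes a deubiquitinase with rhythmic liver expression, was at 14.3, 19.0, 13.3 and 10.8 CPM in the WT mice and at 5.92, 7.25, 10.4 and 10.2 CPM in the KO mice, with no overlap (log2 fold change −0.77, SE 0.20, edgeR adjusted p = 0.0538).

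With the animal number series as a term 2 of the 16 were called, where 4.94% of all tested genes were called. Usp2 was among them at −0.87 (SE 0.20, edgeR adjusted p = 0.0237). Without WT replicate 3 the further genes called numbered 4, with Ciart, Csnk1e and Usp2 among them, where 8.32% of all genes tested were called. Csnk1e, a casein kinase that phosphorylates PER proteins, did not overlap between labels, at 8.71 to 12.0 and 12.9 to 15.9 CPM (0.48, SE 0.13, edgeR adjusted p = 0.0652). Ciart, a repressor of BMAL1 and CLOCK, was at 4.52, 7.32, 1.16 and 1.996 CPM and at 1.05, 1.01, 1.40 and 2.44 CPM, with a log2 fold change of −1.35 (SE 0.55, edgeR adjusted p = 0.228), and the fit within animals 98 to 100 gave 0.73. Rora, which encodes an activator at ROR response elements, was at −0.23 (SE 0.09, edgeR adjusted p = 0.216), and it showed no overlap between labels.

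Between the series 2 of the 16 were called, both lower in animals 98 to 100. Of all tested genes 2.41% were called, with 0.976% lower in animals 98 to 100. Cry1, a repressor of the loop whose gene is itself a REV-ERB target, was at 10.4, 13.2 and 9.17 CPM in WT replicate 3 and KO replicates 3 and 4 and at 20.2 to 42.4 CPM in the other 5 libraries, a log2 difference of −1.56 (SE 0.24, edgeR adjusted p = 0.0177). Tef, the third PAR bZIP factor beside Dbp and Hlf, was uncalled at 0.62 (edgeR adjusted p = 0.164).

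**Figure D5:**
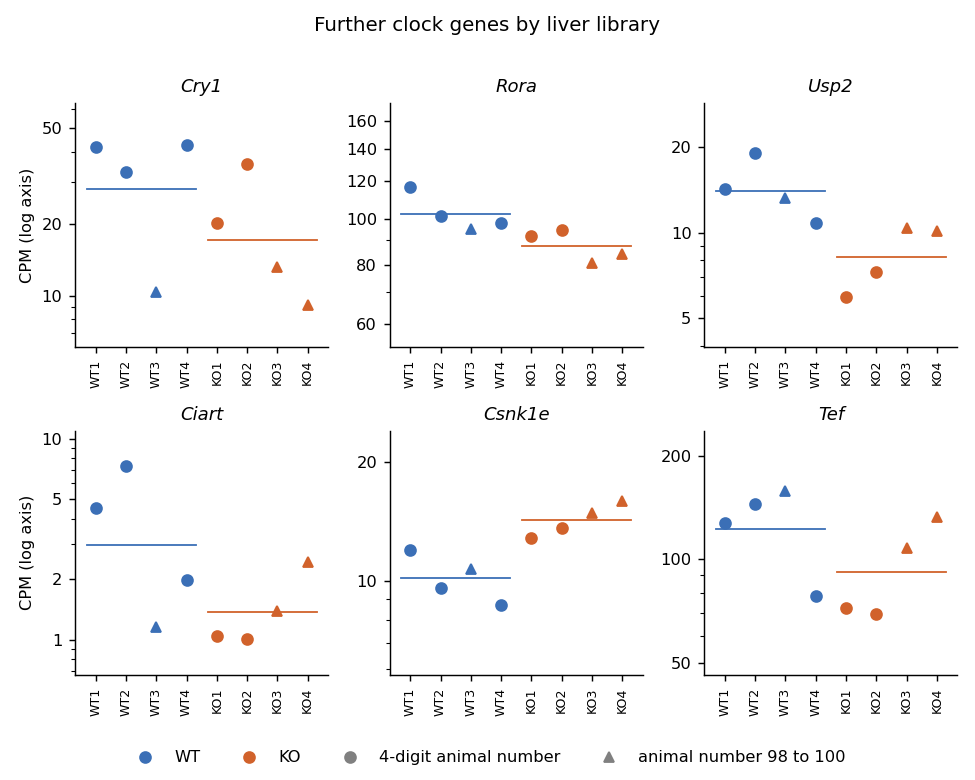
Levels in CPM (log axis) of 6 further clock genes in the 8 liver libraries, with colours, shapes and lines as in the plot of the 10 clock genes by library. Cry1 is lowest in the 3 triangles, and Usp2, Csnk1e and Rora show no overlap between blue and orange.

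The genes whose log2 CPM followed Dbp most closely over the 8 libraries, members and predicted gene models aside, were Ergic1, Arcn1, Trim34a, Rbms1 and Acat2, with Pearson's r of 0.97, 0.97, 0.96, 0.95 and 0.95. Those that followed Arntl were Baiap2, Tmem222, Dcxr, Tbl3 and D17H6S53E, with r of 0.98, 0.97, 0.97, 0.96 and 0.96. They were the highest values among all tested genes with a mean log2 CPM above 0, so they describe a ranking and carry no test. Their ranges were small beside those of Dbp and Arntl, such as 50.4 to 63.4 CPM for Ergic1 and 66.2 to 121.7 CPM for Dcxr, the gene of a carbonyl reductase.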

How the data were processed

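Liver RNA of 8 mice was sequenced, 1 library each. The deposited table holds raw counts of reads per gene that the authors made with bcl2fastq 2.19.1, GSNAP and featureCounts 1.5.1 on mm10, per the submitters' processing notes. Per the file headers, counting used the Ensembl 81 annotation, strand setting 2 and a minimum mapping quality of 1, and the table also gives each gene's exon length in bases. Of 45706 gene identifiers 45143 matched a symbol; 92 spike-in rows held 0 counts.

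Genes were filtered by filterByExpr (minimum count 10) and compared with edgeR 4.0.16 in R 4.3.3 (trimmed mean of M values, robust quasi-likelihood test, Benjamini-Hochberg adjustment over 14645 genes, call at 0.05). SEs come from the F statistic. Log2 CPM used a prior count of 2. The fit was tested on simulated counts. DESeq2 1.42.0, limma 3.58.1 (voom), other scalings and filters, left-out libraries and the animal number series were alternatives. No pair of libraries agreed within counting noise (chi-square of at least 15.6 per degree of freedom), and all were kept. The 10 members and all gene lists were chosen with earlier results of these data known. All members were named; of the further lists, called genes or those with the smallest p, and Cry1, Tef and the Nr1d1, Hlf and Arntl elements were picked with values in view. The labels do not state litters or batches, and p-values rest on the spread between these mice alone. Those of the main fit between labels and of the permutations take no account of the animal number series. Some of the further clock genes are counted but not reported here by name.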

Additional observations from a re-analysis of the deposited data

How the results depend on the processing

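The count of clock members called between labels was 0 under both other scalings, DESeq2, limma-voom, both other filters, the replicate block, the 4-digit animals and each left-out library (0 to 0). It was 1 (Npas2) with the series as a covariate, where 4.94% of all genes were called. Animals 98 to 100 set 1 WT library against 2 KO libraries, so calls in that fit are not counted here. For further clock genes the count was 3 by DESeq2, 1 by limma-voom and 1 without a low-count filter. It was 2 with the series term, 3 in the 4-digit animals and 0 to 4 with 1 library left out. The shares of all genes were 7.57% by DESeq2, 3.19% by limma-voom, 3.38% without the filter, 2.48% in the 4-digit animals and 1.49% to 8.32% with 1 library left out. The replicate block called 1 of them (3.85% of all genes); same-numbered mice deviated with correlations of 0.0255, 0.0251, 0.122 and −0.147, so they share only a number.

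Signs of uncalled members turned. Arntl was at 0.13 with the series term, 0.10 in the 4-digit animals and 0.19 in animals 98 to 100, and from −0.38 to 0.11 with 1 library left out. Clock was at 0.00422 in the 4-digit animals. Per2 was at 0.0104 by upper quartile scaling, 0.0417 by limma-voom, 0.069 with the replicate block and 0.0518 in the 4-digit animals, and from −0.22 to 0.47 with 1 library left out. Nr1d1 was at −0.34 with the series term and −0.60 in the 4-digit animals, and from −0.15 to 0.63 with 1 left out. The same ranges were −0.15 to 0.44 for Npas2 and −1.62 to 0.44 for Dbp. Ciart was at 0.73 in animals 98 to 100.

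Between the series, the count of members called ranged from 1 to 5 with 1 library left out. The shares of all genes were 0.375% to 2.59%. The KO libraries alone gave Arntl at −1.20 (uncalled), Per1 at −0.93 and Nr1d2 at 1.15 (both called) and Hlf at −0.0702. With 1 library left out the log2 differences were −1.47 to −1.05 for Arntl, 0.74 to 1.15 for Per2, 1.32 to 1.89 for Nr1d1, 0.71 to 1.16 for Nr1d2 and −0.0591 to 0.0474 for Hlf. The pairs of members past the adjusted threshold numbered 18, with 22 once the mean of each label, though not of each series, was removed and 17 with a smaller prior count. They numbered 0 without the 2 farthest libraries, where a pair alone could not pass with 6 libraries. The correlation of Arntl with Per1 was −0.66 in the 4-digit animals and −0.47 with genotype and series removed, and that with Hlf was 0.0224 without the 2 farthest libraries. For other single values the cause of a shift was not tested. With Dbp counted 32 to 48 times in 3 libraries, depth limits its level there.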

Other observations

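Outside the clock itself, lists of genes with known rhythmic, glucocorticoid-driven or feeding-driven expression in liver were examined. None of 12 rhythmic output genes was called between labels by edgeR, with 7 at an unadjusted p under 0.05 (18% of all tested genes) and a median log2 fold change of −0.50. DESeq2 called 2 of the 12 (Upp2, adjusted p = 0.000173, and Nampt, adjusted p = 0.0327), and limma-voom called 2 (Upp2 and Cyp7a1), where they called 7.57% and 3.19% of all tested genes. Upp2, a uridine phosphorylase, was at 228.8 ± 71.6 CPM in WT and 110.1 ± 25.2 CPM in KO (SD, n = 4 mice per label, edgeR adjusted p = 0.0797). It was called lower without WT replicate 3, at −1.26 (edgeR adjusted p = 0.0005). Nampt, which makes an NAD precursor, was at 103.0 ± 22.7 and 70.5 ± 12.9 CPM (edgeR adjusted p = 0.118), and the cold-inducible gene Rbm3 at 19.4 ± 2.06 and 14.2 ± 2.85 CPM (edgeR adjusted p = 0.109).

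Of 8 genes of the glucocorticoid response, Tsc22d3, which encodes the glucocorticoid-induced leucine zipper protein, fell from 169.9 ± 46.1 to 86.0 ± 19.1 CPM with no overlap between labels (log2 fold change −0.98, SE 0.22, edgeR adjusted p = 0.0421). Leaving out 1 library gave −1.11 to −0.83, and the call was lost without WT replicate 1 or 2 or any 1 of the KO replicates, without the low-count filter (adjusted p = 0.137) and in the 4-digit animals (adjusted p = 0.123, all edgeR). Mt2 and Fkbp5 of that list were at 0.87 and 0.39, with adjusted p = 0.527 and 0.60 (edgeR). None of 10 genes of fasting and feeding was called by edgeR, by DESeq2 or by limma-voom, and 0 had an unadjusted p under 0.05. Srebf1, Cpt1a and Fgf21 were at −0.47, −0.24 and −0.40. Between the animal number series Mt1 was lower in animals 98 to 100 (log2 difference −1.33, edgeR adjusted p = 0.0288) and Ppargc1a higher (0.71, edgeR adjusted p = 0.0194). Mt1 and Ppargc1a were picked after their values were seen.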
